A study of Rattus norvegicus with 12 samples.

Results

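The genes described here are 10 genes of the NF-kB pathway. Rel, Relb, Nfkb1 and Nfkb2 encode DNA-binding subunits, Nfkbia, Nfkbib and Nfkbie encode the classical cytoplasmic inhibitors (IkB proteins), Bcl3 encodes a nuclear IkB-type co-regulator, and Tnfaip3 and Tnip1 encode a ubiquitin-editing enzyme and its binding partner, which restrain signalling upstream of the inhibitors. They were chosen by name, with no measured value in the rule. All 10 were found in each of the 3 deposited tables, among 13546 genes listed in at least 1 table, and all 10 passed the filter on low values.

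RNA was sequenced from primary nucleus pulposus cells, which fill the soft centre of the disc between vertebrae, grown out from explants of Wistar rat spines in DMEM with serum. All cells carried a lentivirus, either shTon, an shRNA against TonEBP (the osmosensitive transcription factor encoded by Nfat5), or PLKO, a control shRNA. TNF-a, an inflammatory cytokine, was given at 50 ng/mL for the 24 h before collection, or left out (CTR). The 4 groups were shTon_TNF, PLKO_TNF, shTon_CTR and PLKO_CTR, with 3 libraries each, numbered as sets 1 to 3 in every group. What a set stands for is not said in the labels, and nothing there gives separate animals or cultures. Most fits below took the set as a block, so their p-values reflect how differences within a set varied among the 3 sets. In the limma fits each gene's spread was also drawn toward that of genes of similar level. Their SEs, intervals and p-values thus rest on other genes as well as on the gene's own sets. The spread among sets may be technical. How many shRNA sequences were used is not stated either.

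NF-kB subunits form dimers that IkB proteins hold in the cytoplasm. TNF-a, through its receptor, activates the IKK kinases, the IkB proteins are phosphorylated and degraded, and the freed dimers enter the nucleus and bind kappa-B elements. The genes they switch on include some that encode IkB proteins, Tnfaip3 or subunits, so that the pathway renews its own parts and its own inhibitors. In disc cells TNF-a is studied as a driver of matrix breakdown. TonEBP shares the Rel-type DNA-binding domain with NF-kB subunits, and its recognition element resembles a kappa-B element.

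The promoter stretches that hold kappa-B matches are shown first for the members whose results are described at most length. The sequences are RefSeq's, build GRCr8, from tables holding 250 bases before to 50 bases after each gene's start. They are written 5′ to 3′ on the gene's strand, with kappa-B decamer consensus matches in capitals and adjoining capitals where matches overlap. The deposited tables used an older build (rn5), and no position was carried between the builds.
Tnfaip3, chr1:15544000-15544174, minus strand: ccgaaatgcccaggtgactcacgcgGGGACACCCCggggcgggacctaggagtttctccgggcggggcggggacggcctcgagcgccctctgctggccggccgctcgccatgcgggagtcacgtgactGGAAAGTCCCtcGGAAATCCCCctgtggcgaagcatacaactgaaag
Nfkb2, chr1:255108329-255108388, plus strand: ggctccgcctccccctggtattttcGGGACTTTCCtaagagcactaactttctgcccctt
Nfkbia, chr6:78597069-78597128, minus strand: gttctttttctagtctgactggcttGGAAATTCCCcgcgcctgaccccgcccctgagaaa
Nfkb1, chr2:226805425-226805484, minus strand: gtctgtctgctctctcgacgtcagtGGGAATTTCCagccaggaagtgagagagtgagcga
Rel, chr14:101921985-101922182, minus strand: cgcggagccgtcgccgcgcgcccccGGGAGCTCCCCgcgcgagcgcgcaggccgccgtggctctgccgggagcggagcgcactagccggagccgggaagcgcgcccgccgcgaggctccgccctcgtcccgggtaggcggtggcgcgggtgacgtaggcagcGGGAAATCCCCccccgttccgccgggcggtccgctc
Bcl3, chr1:88613559-88613618, minus strand: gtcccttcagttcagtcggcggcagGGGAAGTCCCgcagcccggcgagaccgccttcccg

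Of the 10 members, 9 had a promoter in the RefSeq table, and Relb had none. The kappa-B decamer consensus, searched on both strands, was present in 8 of these 9, the exception being Nfkbib, against 7.51% of 33469 promoters of the same length. Rel and Bcl3, whose transcripts did not pass the test with TNF-a, held it as well as Tnfaip3 and Nfkb2. The TonEBP element core TGGAAA, on either strand, was present in 5 of 9 members, against 22.7% of all promoters. The longer tonicity-responsive enhancer consensus was present in Nfkb1, Nfkbia and Tnfaip3, that is 3 of 9, against 5.98% of all promoters. In each of these 3 promoters, 1 such match overlapped a kappa-B match. A match describes letters in the window and is not evidence of binding, and its absence says only that these letters are not there.

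**Figure D1:**
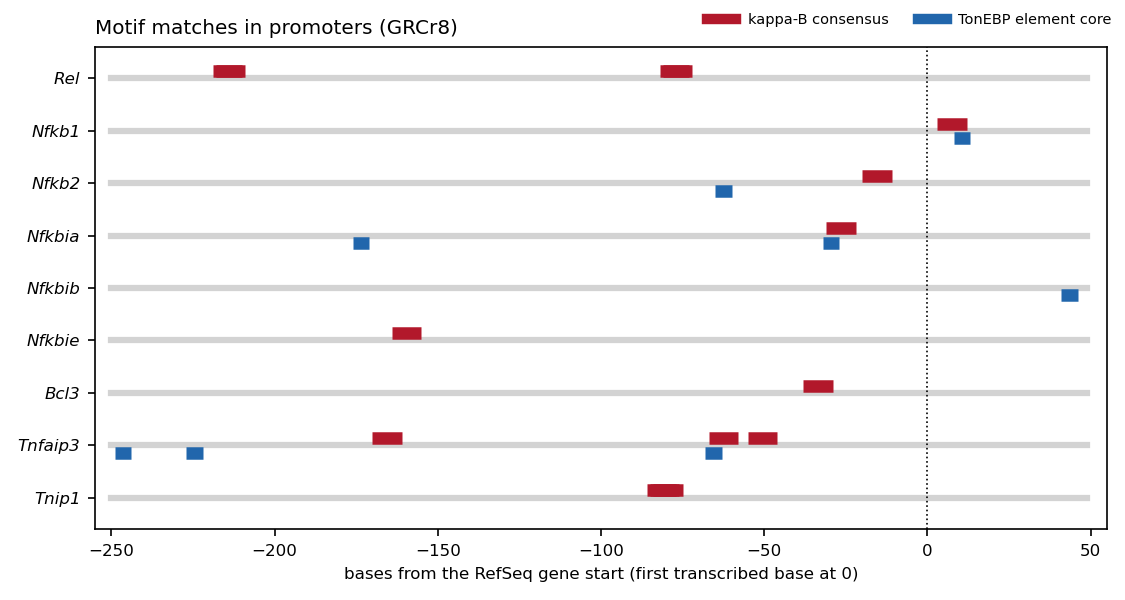
Positions of the kappa-B consensus (red) and the TonEBP element core (blue) in the promoters of the 9 members with a RefSeq entry. The horizontal axis gives bases from the gene start, and the grey bars span the 300 bases searched. Red marks appear in every row but that of Nfkbib, and in Nfkb1, Nfkbia and Tnfaip3 a blue mark overlaps a red one.

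The libraries held 7160042 to 18645538 reads over the listed genes. The deposited values of every table were whole reads divided by 1 factor per library, and the reads thus recovered were scaled together over the 12899 genes common to the 3 tables. Levels per library are given below as normalised reads on this joint scale and compare libraries for 1 gene, not genes with each other. Nfat5 itself stood at 458, 457 and 288 in sets 1, 2 and 3 of shTon_CTR, against 685, 1363 and 1818 in PLKO_CTR. It stood at 1695, 499.7 and 232 in the libraries labelled shTon_TNF, against 642, 1092 and 483 in PLKO_TNF, so the set 1 library labelled shTon_TNF went against its label. Nfat5 differed by a log2 fold change of -1.61 (SE 0.33, adjusted p = 0.0963) without TNF-a and -0.26 (SE 0.44, adjusted p = 0.799) with it. The authors' deposited tables give -1.19 with an adjusted p of 4.57e-05 without TNF-a, and -0.03 with an adjusted p of 0.987 with it. The deposited fold changes came close to a DESeq2 refit that shrinks fold changes, so their sizes are not comparable with those fitted here. Of the markers of nucleus pulposus and notochord, 6 of 11 were listed, with a summed level of 4332 to 10593 normalised reads in shTon_TNF, 3417 to 8529 in PLKO_TNF, 6709 to 16497 in shTon_CTR and 7351 to 12655 in PLKO_CTR, while T, Krt18, Krt19, Shh and Noto were not among the genes analysed here. That sum was 8529 to 16497 in set 1, 5623 to 9386 in set 2 and 3417 to 7351 in set 3, and 1 of its genes, Car3, ran from 3.03 to 13348 over the libraries. Lgals3 and Car3 had the highest group means of these 6 genes. Of 6 markers of cartilage-type matrix, 2 were listed, Comp and Hapln1, while Acan, Col2a1, Sox9 and Matn3 were not among the genes analysed here. Skeletal muscle markers, 10 of 10 listed, summed to 48372 to 111321 in set 1, 18758 to 34268 in set 2 and 172 to 259 in set 3. Of 10 leukocyte markers, Cd14 and Cd68 were listed and Ptprc, Csf1r, Itgam and 5 others were not analysed here, and their sum was 299.8 to 677 in shTon_TNF, 186 to 293 in PLKO_TNF, 252 to 524 in shTon_CTR and 277 to 346 in PLKO_CTR. The means of these 2 markers lay in opposite directions, with Cd14 at 436 in shTon_TNF, against 172 in PLKO_TNF, and Cd68 at 32.8 in shTon_TNF, against 78.9 in PLKO_TNF. The part of any of these in the results below was not tested, and in bulk RNA a smaller number of cells of a type and less RNA per cell cannot be told apart.

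The first question was which of these genes responded to TNF-a. With TNF-a, 8 of the 10 rose in PLKO cells and none fell, and the same 8 rose in shTon cells, where again none fell. These were Tnfaip3, Nfkb2, Nfkbia, Nfkbie, Tnip1, Nfkbib, Relb and Nfkb1, and the 2 that did not pass the test in either vector were Rel and Bcl3. The test was limma on log2(value + 1) with the set as a block, at an adjusted p under 0.05 (Benjamini-Hochberg over all genes). By the same rule, 4.97% of all genes were higher and 4.65% lower with TNF-a in PLKO cells, and 1.95% higher and 1.33% lower in shTon cells. The median log2 fold change of the 10 was 1.28 in PLKO and 1.24 in shTon cells, against -0.01 over all genes in each. In the authors' deposited table for PLKO cells the same 8 had an adjusted p under 0.05, as had 1339 of its 13373 genes, higher or lower.

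Tnfaip3, which encodes the ubiquitin-editing enzyme also known as A20, rose most. It stood at 2561, 2131 and 3133 normalised reads in sets 1, 2 and 3 of PLKO_TNF, against 438, 295 and 405 in PLKO_CTR. It stood at 2132, 2543 and 2374 in shTon_TNF, against 366, 321 and 380.0 in shTon_CTR. Every TNF-treated library lay above every untreated one, and the fold per set was 5.83, 7.23 and 7.75 in PLKO and 5.82, 7.91 and 6.25 in shTon cells. The log2 fold change was 2.78 (SE 0.11, adjusted p = 0.000213) in PLKO and 2.72 (SE 0.14, adjusted p = 0.000437) in shTon cells. The authors' deposited table gives 2.61 for PLKO cells, with an adjusted p of 2.52e-60. Its partner Tnip1, which encodes a ubiquitin-binding adaptor that links the enzyme to its substrates, stood at 4967, 4466 and 7871 in PLKO_TNF, against 1538, 2291 and 2894 in PLKO_CTR. The shTon_TNF libraries had 5546, 5259.6 and 7329.6, against 1583, 2137 and 2154 in shTon_CTR. The groups again did not overlap in either vector, and set 3 was the highest in every group. Tnip1 rose by 1.37 (SE 0.15, adjusted p = 0.00601) on the log2 scale in PLKO and 1.62 (SE 0.15, adjusted p = 0.00285) in shTon cells.

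All 3 classical inhibitor genes rose. Nfkbia, which encodes the inhibitor that is degraded and remade most quickly, stood at 6752, 5635 and 11084 normalised reads in PLKO_TNF, against 2076, 2318 and 4043 in PLKO_CTR. The values were 6726, 7136 and 13263 in shTon_TNF, against 2023, 2379.6 and 4271 in shTon_CTR. Set 3 was the highest in every group, and in each vector the treated libraries all lay above the untreated ones. The log2 fold change of Nfkbia was 1.48 (SE 0.12, adjusted p = 0.00218) in PLKO and 1.65 (SE 0.12, adjusted p = 0.00138) in shTon cells.

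Nfkbie encodes an inhibitor that preferentially holds dimers containing Rel or Rela. It stood at 816, 465 and 810.2 in PLKO_TNF, against 284, 185 and 249 in PLKO_CTR. Its values in shTon_TNF were 867, 711 and 586, against 290.1, 243 and 338 in shTon_CTR. No treated library overlapped the untreated ones of its vector, and the log2 fold change was 1.51 (SE 0.12, adjusted p = 0.00218) in PLKO and 1.30 (SE 0.19, adjusted p = 0.0160) in shTon cells. Nfkbib, the gene of an inhibitor that is resynthesised more slowly, stood at 282, 543 and 389 in PLKO_TNF, against 158, 178 and 173 in PLKO_CTR. The shTon_TNF libraries had 287, 359 and 589, against 182, 157 and 219.9 in shTon_CTR. The groups did not overlap, but the fold per set varied more than for the other 2 inhibitors in PLKO cells, at 1.79, 3.06 and 2.26. The log2 fold change of Nfkbib was 1.20 (SE 0.17, adjusted p = 0.0120) in PLKO and 1.09 (SE 0.18, adjusted p = 0.0272) in shTon cells. Without set 3, the value in shTon cells was 0.92 and the adjusted p 0.0714.

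Among the subunit genes, Nfkb2, Relb and Nfkb1 rose and Rel did not pass the test. Nfkb2, whose product is processed into a partner of the Relb protein in the non-canonical pathway, stood at 3783, 2548 and 3939 normalised reads in PLKO_TNF, against 830.0, 668 and 976 in PLKO_CTR. The values were 3622, 2701 and 3236 in shTon_TNF, against 805, 817 and 1415 in shTon_CTR. The groups did not overlap, and set 3 gave the smallest fold in shTon cells, where the folds per set were 4.50, 3.31 and 2.29, against 4.55, 3.81 and 4.04 in PLKO cells. The log2 fold change of Nfkb2 was 2.04 (SE 0.10, adjusted p = 0.000531) in PLKO and 1.70 (SE 0.19, adjusted p = 0.00719) in shTon cells.

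Relb encodes a subunit with a transactivation domain that pairs with the Nfkb2 product. It stood at 1085, 789 and 1272 in PLKO_TNF, against 485, 318 and 680.4 in PLKO_CTR. Its values in shTon_TNF were 1347, 1032 and 1454, against 483, 445 and 794 in shTon_CTR. Set 3 was the highest and set 2 the lowest in every group, and the treated and untreated groups did not overlap. Relb rose by 1.12 (SE 0.11, adjusted p = 0.00466) on the log2 scale in PLKO and 1.19 (SE 0.15, adjusted p = 0.0101) in shTon cells. Nfkb1, the gene of the precursor that yields the usual partner of Rela, stood at 6433, 6257 and 4912 in PLKO_TNF, against 3286, 3056 and 2795 in PLKO_CTR. The shTon_TNF libraries had 5314, 4775 and 3423, against 2720.5, 2330.4 and 1782 in shTon_CTR. Set 1 was the highest and set 3 the lowest in every group, and the log2 fold change was 0.94 (SE 0.10, adjusted p = 0.00627) in PLKO and 0.98 (SE 0.12, adjusted p = 0.00884) in shTon cells.

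Rel, the gene of the subunit best known from lymphocytes, was counted on few reads, 26 to 151 per library. It stood at 93.2, 74.7 and 62.1 normalised reads in PLKO_TNF, against 91.7, 40.1 and 64.5 in PLKO_CTR. The values were 129, 62.8 and 75.7 in shTon_TNF, against 66.9, 31.2 and 57.3 in shTon_CTR. The groups overlapped in both vectors, although each shTon set was higher with TNF-a, as in 19.9% of all genes. For Rel the log2 fold change was 0.28 (95% interval -0.29 to 0.86, adjusted p = 0.476) in PLKO and 0.77 (95% interval 0.25 to 1.30, adjusted p = 0.121) in shTon cells. The interval in shTon cells includes the log2 fold change of Nfkb1 there, 0.98, while that in PLKO cells ends below the 0.94 of Nfkb1.

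Bcl3, whose product binds dimers of the Nfkb1 or Nfkb2 products in the nucleus, stood at 292, 155 and 426 in PLKO_TNF, against 333, 374 and 518 in PLKO_CTR. Its values in shTon_TNF were 497, 295 and 454, against 498, 432 and 336 in shTon_CTR. Every PLKO set was lower with TNF-a, as in 26.6% of all genes, but the groups overlapped, and the 3 shTon sets differed in direction. For Bcl3 the log2 fold change was -0.58 (95% interval -1.09 to -0.07, adjusted p = 0.133) in PLKO and -0.04 (95% interval -0.51 to 0.43, adjusted p = 0.938) in shTon cells. Both intervals end below the estimates of the 8 members that rose in the same vector.

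**Figure D2:**
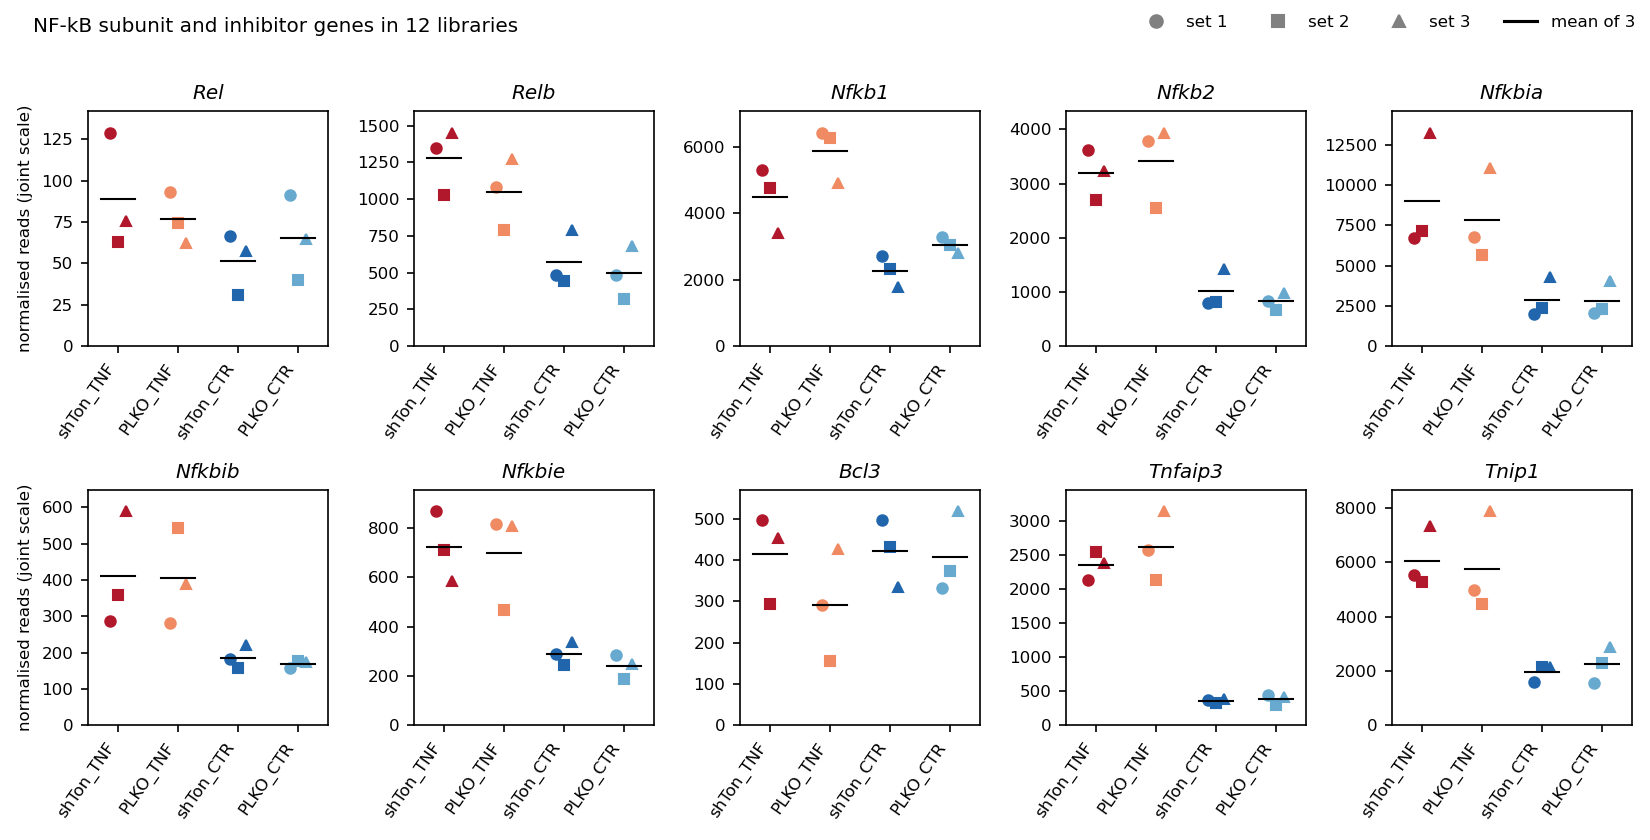
Normalised reads on the joint scale for each member in the 12 libraries, each panel with its own linear axis from 0. Symbols mark the set, colours the group, and lines the mean of 3 libraries. In 8 panels the TNF-treated groups of a vector lie wholly above its untreated group, while in those of Rel and Bcl3 they overlap.

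All 8 members that rose had treated and untreated groups that did not overlap, in both vectors, whereas 5.95% of all genes had a treated group wholly above the untreated one in PLKO and 5.5% in shTon cells. In PLKO cells every per-set fold of Tnfaip3 exceeded every per-set fold of Nfkb2, which was 4.55, 3.81 and 4.04, and every one of Nfkb2 exceeded those of the other 6. The folds of those 6 partly interleaved, with Nfkbie at 2.87, 2.51 and 3.26, Nfkbia at 3.25, 2.43 and 2.74, Relb at 2.23, 2.48 and 1.87 and Nfkb1 at 1.95, 2.05 and 1.76. Those of Nfkbie lay above those of Relb and Nfkb1, and those of Nfkbia above those of Nfkb1. In shTon cells the folds of Tnfaip3 again exceeded all others. Those of Nfkb2 there lay above those of Nfkb1 and interleaved with the rest. The calls rest on pairing libraries by set. Without the set block, none of the 10 passed in PLKO cells by limma, though 8 had an unadjusted p under 0.05, and only Tnfaip3 passed in shTon cells. Without the mean-variance trend, where each gene's spread is drawn toward a value common to all expression levels, 4 passed in each vector.

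**Figure D3:**
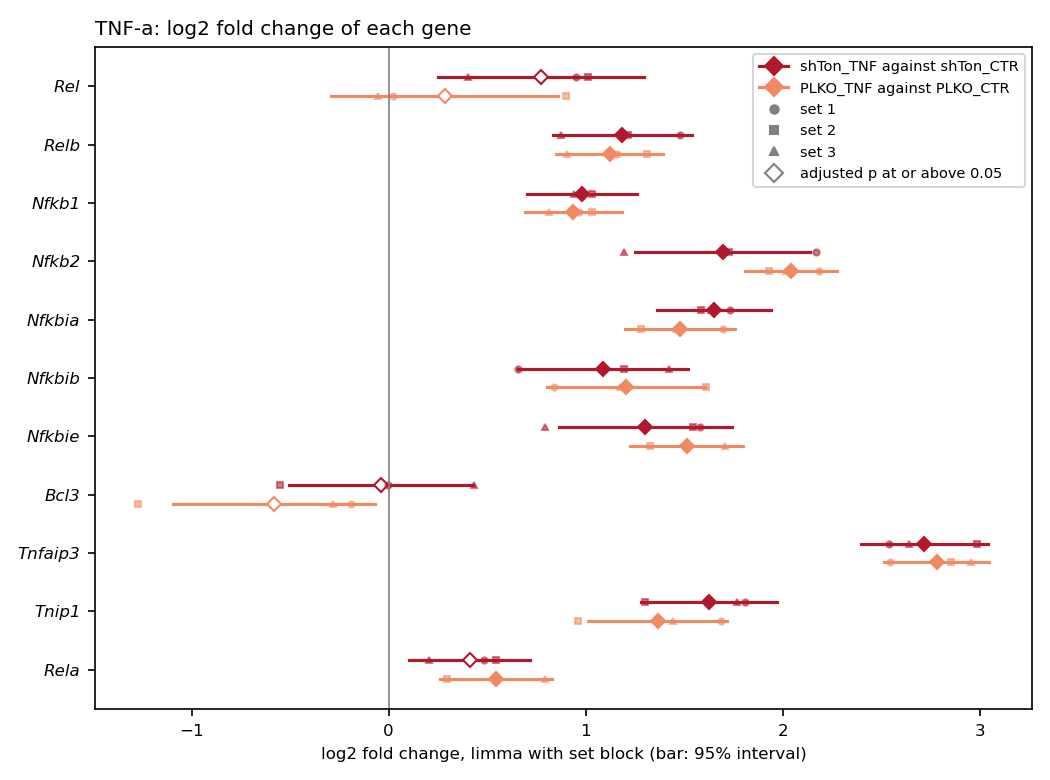
Log2 fold change with TNF-a in shTon (dark red) and PLKO (orange) cells for the 10 members and Rela. Diamonds give the limma estimate with its 95% interval, open where the adjusted p was at or above 0.05, and small symbols give each set. Tnfaip3 lies furthest to the right in both vectors, and Rel and Bcl3 have open diamonds in both.

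The second question was whether the shRNA against TonEBP altered these genes. Without TNF-a, 0 of 10 members passed the test between shTon_CTR and PLKO_CTR, where 0.113% of all genes did. With TNF-a, 0 of 10 passed between shTon_TNF and PLKO_TNF, where 0.254% of all genes did. At an unadjusted p under 0.05 there were 1 and 2 members in these comparisons, while 17.0% of all genes met that mark in each. The authors' deposited tables call 0 members in either comparison, where they call 406 of 13305 genes without TNF-a and 371 of 13176 with it. On the recovered reads, edgeR and DESeq2 called 0 members in each as well. Over all genes tested, edgeR called 18 of 12383 without TNF-a and 29 of 12213 with it, and DESeq2 411 and 363. With calls this rare, 0 of 10 is near the share of all genes.

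Nfkb1 was the member furthest below its control without TNF-a. The values of Nfkb1 in shTon_CTR and PLKO_CTR given above did not overlap, since the highest shTon_CTR library lay below the lowest PLKO_CTR library, as in 5.13% of all genes. The log2 fold change of Nfkb1 was -0.44 (95% interval -0.74 to -0.15, adjusted p = 0.157). With TNF-a, Nfkb1 was lower in the libraries labelled shTon_TNF than in PLKO_TNF in 3 of 3 sets, as were 19.8% of all genes, and the groups overlapped. With TNF-a the log2 fold change of Nfkb1 was -0.39 (95% interval -0.78 to -0.01, adjusted p = 0.287). The fold per set was 0.82, 0.76 and 0.64 without and 0.83, 0.76 and 0.70 with TNF-a. The authors' deposited tables give log2 fold changes of -0.40 and -0.35, with adjusted p of 0.133 and 0.368.

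Bcl3 with TNF-a was the other member below an unadjusted p of 0.05. It was higher in the libraries labelled shTon_TNF than in PLKO_TNF in 3 of 3 sets, by a fold per set of 1.72, 1.91 and 1.06, as 20.5% of all genes were higher in all 3. The groups overlapped, and the log2 fold change was 0.60 (95% interval 0.11 to 1.09, adjusted p = 0.222). Without TNF-a the folds of Bcl3 were 1.49, 1.15 and 0.65, on both sides of 1, with a log2 fold change of 0.05 (95% interval -0.47 to 0.57, adjusted p = 0.934).

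For the other 8 members the intervals bound the size of a difference. Without TNF-a, the 95% interval of the log2 fold change ran from -0.24 to 0.29 for Nfkbia, -0.41 to 0.25 for Tnfaip3 and -0.47 to 0.14 for Tnip1. It ran from -0.08 to 0.59 for Nfkb2, -0.10 to 0.56 for Relb and -0.08 to 0.64 for Nfkbie. The widest were those of Rel, -0.84 to 0.19, and Nfkbib, -0.28 to 0.53. With TNF-a, the interval ran from -0.22 to 0.62 for Nfkbia, -0.55 to 0.28 for Tnfaip3, -0.46 to 0.29 for Nfkb2 and -0.05 to 0.65 for Relb. It ran from -0.30 to 0.50 for Tnip1, and was widest for Rel, -0.42 to 0.76, Nfkbib, -0.53 to 0.56, and Nfkbie, -0.42 to 0.58. A difference of the size TNF-a made in any of the 8 members that rose lay outside all the intervals of the same gene, and smaller ones were not resolved. That bound rests partly on spread drawn from other genes, and was not tested on each gene's own sets alone. Between shTon_TNF and PLKO_TNF the log2 ratios per set were 0.04, -0.59 and 0.59 for Nfkbib. For Nfkbie they were 0.10, 0.61 and -0.47. Without set 1, whose library labelled shTon_TNF had high Nfat5, 0 members passed with TNF-a as well, while 488 genes did.

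**Figure D4:**
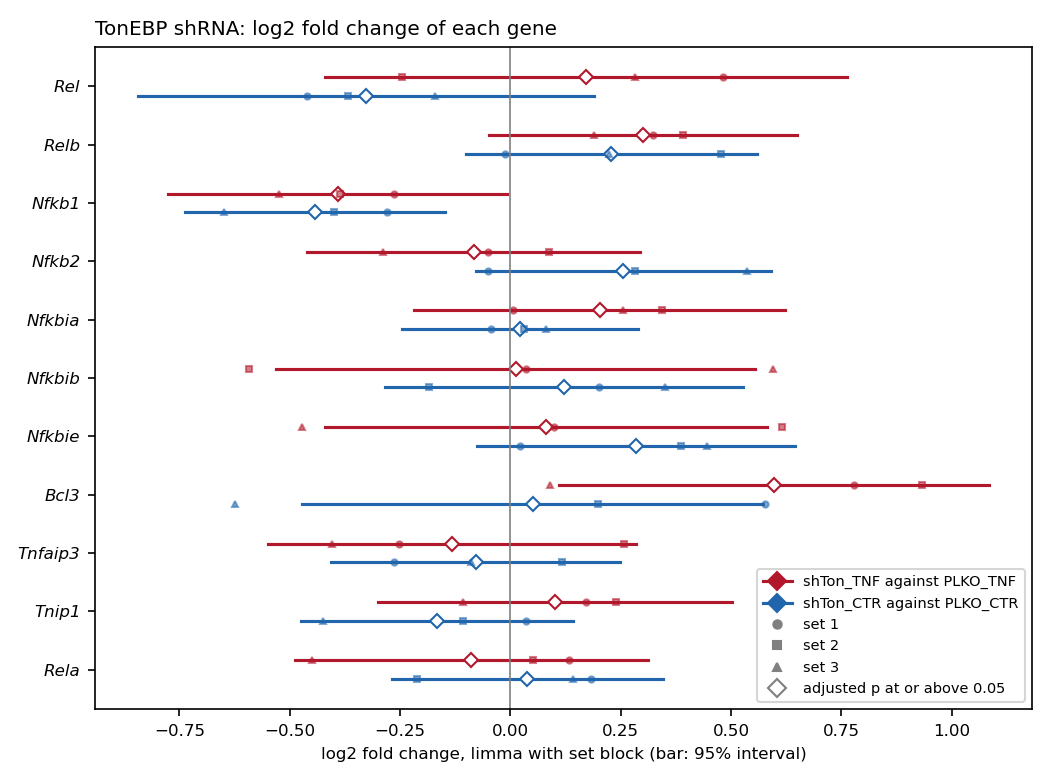
Log2 fold change of shTon against PLKO cells with TNF-a (red) and without it (blue) for the 10 members and Rela. Diamonds give the limma estimate with its 95% interval, all open because no adjusted p was below 0.05, and small symbols give each set. The 2 estimates of Nfkb1 and all 6 of its set values lie left of 0.

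The third question was whether the response to TNF-a itself differed between shTon and PLKO cells. In the interaction over all 12 libraries, 0 of 10 members passed, 0 had an unadjusted p under 0.05, and 0.0% of all genes passed while 1.78% had an unadjusted p under 0.05. Tnfaip3 differed by a log2 fold change of -0.06 (95% interval -0.54 to 0.42, adjusted p = 0.999) and Nfkbia by 0.17 (95% interval -0.21 to 0.56, adjusted p = 0.999). Nfkb1 differed by 0.04 (95% interval -0.32 to 0.41, adjusted p = 0.999) and Nfkb2 by -0.35 (95% interval -0.86 to 0.16, adjusted p = 0.999). The largest estimates were those of Bcl3, 0.54 (95% interval -0.36 to 1.44, adjusted p = 0.999), and Rel, 0.49 (95% interval -0.25 to 1.23, adjusted p = 0.999), the members that had not passed with TNF-a. Neither edgeR nor DESeq2 called a member in this comparison, or any other gene. These intervals are wide enough to hold a moderate difference in response, so a similar response was not shown.

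Because Nfkb1 leaned the same way with and without TNF-a, the mean of both shRNA effects was also fitted over all 12 libraries, a comparison added after these values were seen. Nfkb1 fell in it, with a log2 fold change of -0.42 (SE 0.08, adjusted p = 0.0108) and a 95% interval of -0.60 to -0.23, and the other 9 members did not pass. Nfat5, the target of the shRNA, did not pass in it either, with -0.93 (SE 0.41, adjusted p = 0.158). The fit included the set 1 library labelled shTon_TNF, in which Nfat5 was high. By this rule 13.5% of all genes passed, 7.12% lower and 6.38% higher, so 1 of 10 members is near the share of all genes. The direction of Nfkb1 had prompted this fit, so neither its adjusted p nor the next count is independent of that choice. Nfkb1 was lower in all 6 within-set pairs of libraries, as were 11.2% of all genes. Without set 1 the value was -0.49, with an adjusted p of 0.0233, while without set 2 it was -0.43 with 0.183 and without set 3 it was -0.33 with 0.0742. Without the set block the adjusted p was 0.258. The member with the next smallest adjusted p was Relb, at 0.26 (SE 0.10, adjusted p = 0.109), in the opposite direction.

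The rest of the pathway was followed through a list of 47 genes, of which 44 were listed and tested. With TNF-a in PLKO cells, 5 of 44 rose and 2 fell, where 4.97% of all genes rose and 4.65% fell, so the count that fell is near the share of all genes. The list's median log2 fold change was 0.01, against -0.01 over all genes. Traf1, an adaptor of TNF receptor complexes, rose by 2.28 (SE 0.14, adjusted p = 0.000886), and Birc3, a ubiquitin ligase of the receptor complex, by 2.05 (SE 0.10, adjusted p = 0.000566). Rela, the gene of the main transactivating subunit, rose by 0.55 (SE 0.12, adjusted p = 0.0385), less than any of the 8 members that rose. Rela stood at 1018, 1038 and 1401 normalised reads in PLKO_TNF, against 694, 846 and 808 in PLKO_CTR, and its groups did not overlap. Ikbke and Ikbkb, genes of kinases of the IKK family, rose by 0.54 and 0.53. Nfkbiz, which encodes a nuclear IkB-type protein, fell, with a log2 fold change of -0.71 (SE 0.16, adjusted p = 0.0373), and so did the TNF receptor gene Tnfrsf1a, with -0.44 (SE 0.10, adjusted p = 0.0373). Traf1 and Birc3 passed without any 1 set, whereas Rela, Ikbke, Ikbkb, Nfkbiz and Tnfrsf1a each lost the call without at least 2 of the 3 sets.

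In shTon cells 3 of the 44 rose with TNF-a and 0 fell, where 1.95% of all genes rose and 1.33% fell, with a median of 0.02, against -0.01 over all genes. Traf1 rose by 2.10 (SE 0.15, adjusted p = 0.00132) and Birc3 also rose (adjusted p = 0.000967). Tnip3, a relative of Tnip1, rose by 0.84 (SE 0.17, adjusted p = 0.0497), but did not pass without set 2 or without set 3. Rela stood at 1108, 1073 and 1028 normalised reads in shTon_TNF, against 792, 735 and 891 in shTon_CTR. These groups did not overlap, and the log2 fold change of Rela was 0.41 (SE 0.13, adjusted p = 0.152). In the interaction 0 of the 44 passed, so a difference between the vectors was not shown for any of them.

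Between shTon and PLKO cells 0 of the 44 passed without TNF-a and 0 with it, and 10 and 6 had an unadjusted p under 0.05, as 17.0% of all genes did in each, so these counts lie around the share of all genes. In the mean of both shRNA effects, the comparison added later, 8 of the 44 fell and 1 rose, where 7.12% of all genes fell and 6.38% rose. Without set 2 this comparison called 0 genes of any kind, and without set 3 it called 576 in place of 1661. Those that fell included N4bp1 at -0.71, Tnip3 at -0.63, Nfkbiz at -0.59, Otulin, the gene of a deubiquitinase of linear chains, at -0.51 and Ripk1, the gene of a receptor-complex kinase, at -0.43. Cul1 and Itch, genes of a ubiquitin ligase scaffold and a ubiquitin ligase, stood at -0.41 and -0.29, and the kinase gene Ikbkb at -0.36. The 1 that rose was Nkiras2, whose product binds the Nfkbia and Nfkbib proteins, at 0.59.

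**Figure D5:**
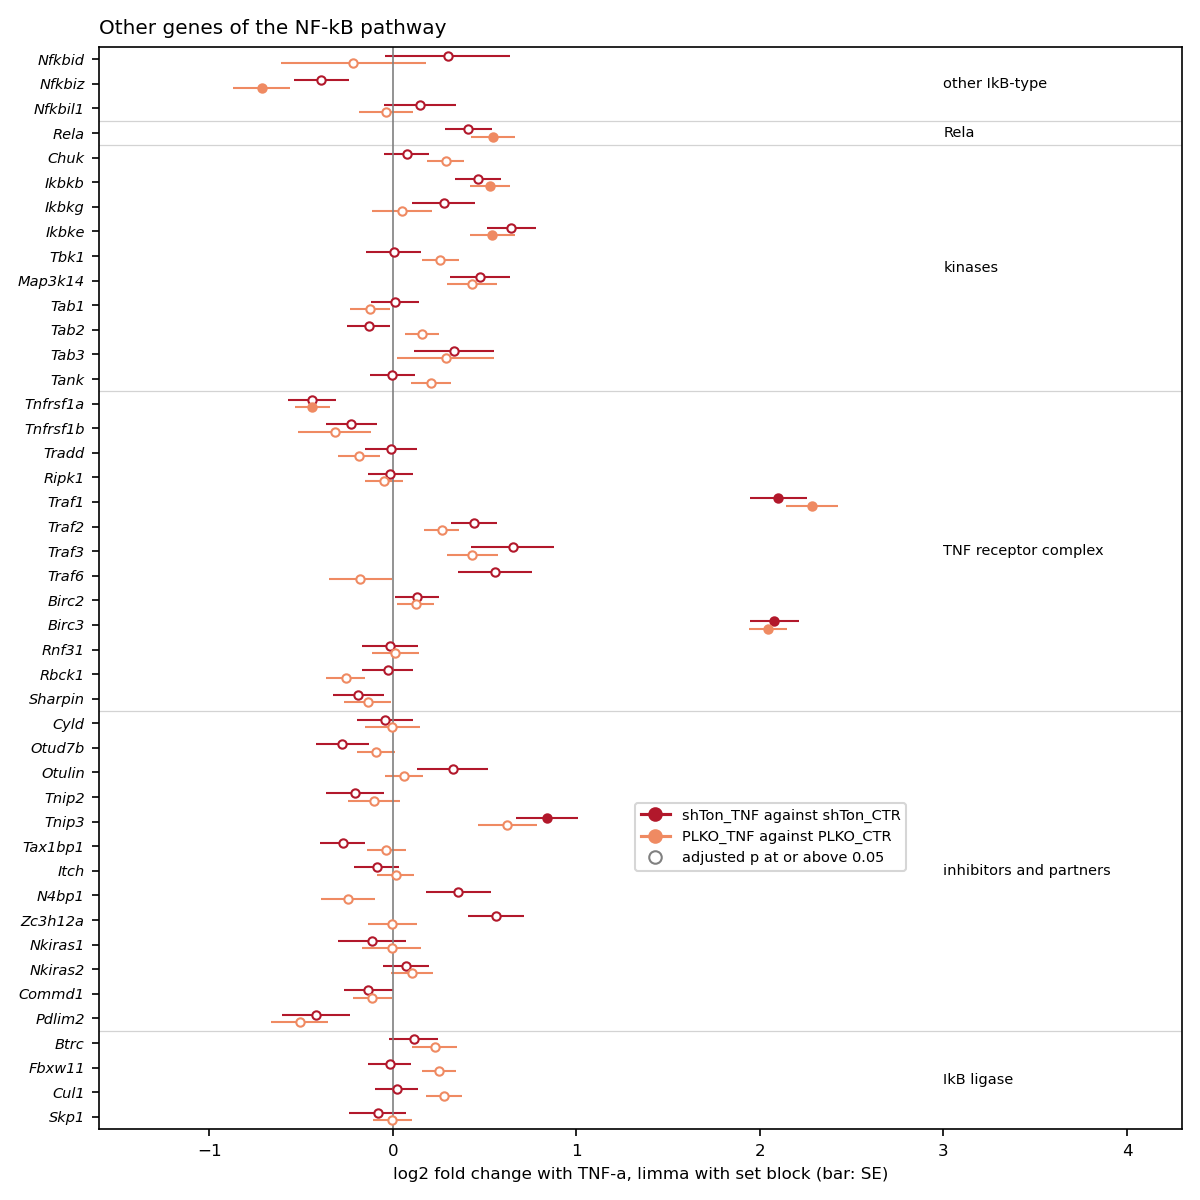
Log2 fold change with TNF-a of the 44 other pathway genes in shTon (dark red) and PLKO (orange) cells, with SE bars and filled symbols where the adjusted p was below 0.05. Traf1 and Birc3 stand near 2 in both vectors, and the other 42 lie between -1 and 1.

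The members also differed in how they varied among the sets. Nfkbia, Relb and Tnip1 were highest in set 3 in all 4 groups, whereas Nfkb1 and Rel were highest in set 1 in all 4. Nfkbia spanned a 1.95-fold to 2.11-fold range among the sets of a group, Nfkb1 1.18-fold to 1.55-fold and Tnfaip3 1.18-fold to 1.49-fold. For Bcl3 the range within a group reached 2.75-fold, in PLKO_TNF. Set 3 was also the set with the fewest reads of muscle genes, whose part in this was not tested.

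After set means were removed, the 8 members other than Rel and Bcl3 were correlated with each other over the 12 libraries, with Pearson's r of 0.788 to 0.983 in 28 pairs. Rel had r of 0.665 to 0.764 with those 8, and Bcl3 had r of -0.539 to -0.208 with the other 9. The libraries share the TNF-a treatment between members, so the values are a description of them and carry no test. Nfkbia lay closest to the mean of the members, which includes it, with r of 0.993. Among 12300 other genes, those most like that mean were Tnfaip2, with r of 0.991, Traf1 with 0.989, Ass1 with 0.988, Birc3 with 0.988 and Pip4k2b with 0.986. In PLKO cells these genes had log2 fold changes with TNF-a of 2.03, 2.28, 3.15, 2.05 and 0.49.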

How the data were processed

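Total RNA of 12 libraries was sequenced, and 3 tables were deposited, each with 6 libraries of 2 groups. The submitters' processing notes name build rn5 and the tools Novoalign (2.08.01) and DESeq2 (no version). Whether counting used strand is not stated in them. The deposited normalised values (signal) are gene counts divided by 1 factor per library, and 100% were whole reads within 0.001 of a read. The log2 fold changes and adjusted p-values printed as the authors' come from their deposited tables.

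From these values, limma 3.58.1 (R 4.3.3, mean-variance trend) was fitted to log2(value + 1) for genes with a mean of at least 10, with the set as a block and Benjamini-Hochberg adjustment over all genes. A fold change on this scale understates that of low genes. TNF-a in PLKO cells and both shRNA comparisons used the deposited values, while TNF-a in shTon cells, the interaction and the mean shRNA effect used reads scaled jointly by median ratios. The comparisons share groups of libraries and are not independent. In these blocked fits the set is treated as a pairing: same-numbered libraries deviated together (r of 0.609 to 0.889 in 18 pairs, against -0.741 to 0.180 in 36 other pairs). A DESeq2 refit with a set term and a prior that shrinks fold changes came close to the deposited fold changes. It made 1341 calls against the authors' 1339 with TNF-a in PLKO cells, and 141 without the set term. On the recovered reads with the set block, edgeR called 1205 genes and DESeq2 1348 in that comparison, against 1190 by limma. No 2 libraries of a group agreed within sampling noise.

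Alternatives were no block, TMM scaling, other pseudocounts (0.1 and 10), no filter, no trend, all 12 libraries in 1 fit, edgeR 4.0.16 and DESeq2 1.42.0 on recovered reads, and leaving out each set. Every member and Rela and, from the other pathway genes, those past the threshold (at most 10 a comparison, by size) are named, with the 5 genes most like the members' mean. The members, lists and tests were chosen with earlier results of these data known. The fits were tested on simulated data. Figures used matplotlib 3.10.9.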

Additional observations from a re-analysis of the deposited data

How the results depend on the processing

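Of the log2 fold changes of single members recomputed under the alternatives, 655 kept their direction and side of the threshold, 27 kept the direction and lost the call, and 18 changed sign. Without the set block, the count of members past the threshold by limma was 0 in place of 8 with TNF-a in PLKO cells, 1 in place of 8 in shTon cells and 0 in place of 1 in the mean shRNA effect. Since same-numbered libraries deviated together, that fit counts the difference between sets as noise. Without the mean-variance trend it was 4 in both TNF-a comparisons, losing Tnip1, Nfkbib, Nfkb1 and Relb in PLKO cells and Nfkbie, Nfkbib, Nfkb1 and Relb in shTon cells, and the cause was not tested. Leaving out 1 set gave 0 to 1 members in the mean shRNA effect and 7 to 8 with TNF-a in shTon cells. Fewer libraries remained in those fits. Over all genes, the calls with TNF-a in PLKO cells were 1190, against 0 without the block, 55 without the trend and 545 to 1410 without 1 set. In shTon cells they were 405, against 6, 143 and 317 to 1105. Between shTon and PLKO cells they were 14 without TNF-a, against 0 without the block, 411 by DESeq2 and 12 to 283 without 1 set, and 31 with TNF-a, against 0, 363 and 32 to 488. With all 12 libraries in 1 fit, the calls between shTon and PLKO cells were 3 without TNF-a and 444 with it. That fit gave 696 calls with TNF-a in PLKO cells and 333 in shTon cells. In the mean shRNA effect the calls were 1661, against 0 without the block and 0 to 1658 without 1 set.

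All changes of sign came from leaving out 1 set, for members that had not passed the test. The lowest and highest log2 fold changes with TNF-a were -0.015 and 0.45 for Rel in PLKO cells and -0.28 and 0.22 for Bcl3 in shTon cells. Between shTon and PLKO cells without TNF-a they were -0.0068 and 0.055 for Nfkbia, -0.21 and 0.39 for Bcl3, and -0.18 and 0.014 for Tnfaip3. With TNF-a they were -0.17 and 0.018 for Nfkb2, -0.28 and 0.31 for Nfkbib, -0.19 and 0.36 for Nfkbie, and -0.33 and 0.0026 for Tnfaip3. In the interaction they were -0.062 and 0.14 for Relb, -0.0012 and 0.065 for Nfkb1, -0.30 and 0.034 for Nfkbib, -0.43 and 0.14 for Nfkbie, and -0.16 and 0.061 for Tnfaip3. In the mean shRNA effect they were -0.15 and 0.032 for Rel, -0.14 and 0.29 for Nfkbib, and -0.098 and 0.084 for Tnip1. Rel was counted on 26 to 151 reads per library and Bcl3 on 145 to 530, and the part of depth was not tested.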
